A study of Rattus norvegicus with 7 samples.

Results

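Glycolysis is the chain of cytosolic enzymes that breaks glucose down to pyruvate. The 10 genes followed here encode hexokinases (Hk1, Hk2), glucose-6-phosphate isomerase (Gpi), liver-type phosphofructokinase (Pfkl), aldolase A (Aldoa), triosephosphate isomerase (Tpi1), phosphoglycerate kinase (Pgk1), phosphoglycerate mutase (Pgam1), enolase (Eno1) and lactate dehydrogenase A (Ldha). They were taken by symbol: every probe set whose only annotated symbol was one of the 10 belonged to the group. This gave 16 of the 31099 probe sets on the array, for 10 of its 14218 genes named in this way. Of these, 3 were Affymetrix control probe sets for hexokinase and 13 were ordinary probe sets, of which 11, for 9 genes, entered the test because their mean level was above 3.64, the median over the ordinary probe sets of the array.

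The first steps of the chain spend ATP to charge and split the sugar, and the later steps, from phosphoglycerate kinase on, return ATP and end in pyruvate, which Ldha can turn into lactate. Low oxygen is known to raise many of these transcripts through hypoxia-inducible factor (HIF). Greater use of glycolysis has been described in vascular cells of hypertensive lungs.

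All 7 arrays came from perfused right lungs of inbred Dahl salt-sensitive rats weighing 250 to 350 g, all kept at an inspired oxygen of about 9.5% and all given SU5416, a VEGF receptor inhibitor, with RNA taken at 3.5 weeks. The H-SU-Sor group (4 arrays, replicates 1 to 4) also received sorafenib, an inhibitor of RAF and of several receptor tyrosine kinases, and the H-SU group (3 arrays, replicates 1b, 2b and 3b) did not. The pair of hypoxia and SU5416 is used in rats to model severe pulmonary hypertension. Age, sex and drug doses are not given in the sources used here, normoxic and hypoxia-only arrays were not analysed here, and each array was taken to be 1 rat, as the study design counts animals.

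The values are log2 expression per probe set, and array medians lay between 3.59 and 3.68. Lung markers were high on every array, with surfactant protein C (Sftpc) between 15.39 and 15.54 and the club cell secretoglobin Scgb1a1 between 15.82 and 15.97. The letter b marks every H-SU replicate and no H-SU-Sor replicate, so whatever it stands for and sorafenib cannot be told apart. Arrays H-SU 1b and 2b stood apart in heart muscle transcripts: the mean deviation of 5 tested heart genes from the 7-array mean was between -1.31 and -0.15 in H-SU-Sor, and 2.16, 1.36 and -1.09 on H-SU 1b, 2b and 3b. Values given without H-SU 1b and 2b set the 4 H-SU-Sor arrays against H-SU 3b alone, whose spread is then assumed to be that of H-SU-Sor. Arrays H-SU-Sor 3 and 4 stood apart in red cell transcripts, with hemoglobin beta (Hbb) at 14.75, 14.27, 12.11 and 11.59 on H-SU-Sor 1 to 4, against 14.23, 14.51 and 14.51 in H-SU.

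The comparison asked how the enzymes differed along the pathway with sorafenib on top of hypoxia and SU5416. Eno1 was the member furthest below H-SU, at a 1.35-fold lower level. Tpi1, Ldha, Pgk1 and Pgam1 lay between 1.08-fold and 1.17-fold lower with overlapping groups. Pfkl was the only tested gene with a higher mean in H-SU-Sor, 1.34-fold, and Hk1, Gpi and Aldoa had nearly equal means. None of the 11 probe sets passed an adjusted p of 0.05 in limma's moderated test with Benjamini-Hochberg adjustment over 15521 probe sets, where 0% of all probe sets passed and the lowest adjusted p was 0.15. Without adjustment, 931 of the 15521 had a p below 0.05.

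At an unadjusted p below 0.05, 1 of the 11 member probe sets (Eno1) was lower in H-SU-Sor, and 0 were higher. Over all probe sets tested the shares were 3.67% lower and 2.33% higher. Groups did not overlap for 1 of the 11, again Eno1, with every H-SU-Sor array below every H-SU array, where 3.25% of all probe sets tested were lower in this way and 2.01% higher. With 1 probe set per gene, 8 of the 9 tested members had a difference below 0, with a median of -0.11 on the log2 scale, beside 53.5% of all 9299 genes tested and their median of -0.01. After quantile normalization, where Hk1 and Aldoa were above 0, the count was 6 of 9 and the median -0.06. Without H-SU 3b the median was also -0.06. There 6 of 9 were below 0 and 2 above when counted on rounded differences, with Aldoa at -0.0. The count was 6 of 9 without H-SU 1b and without H-SU-Sor 4 as well.

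**Figure D1:**
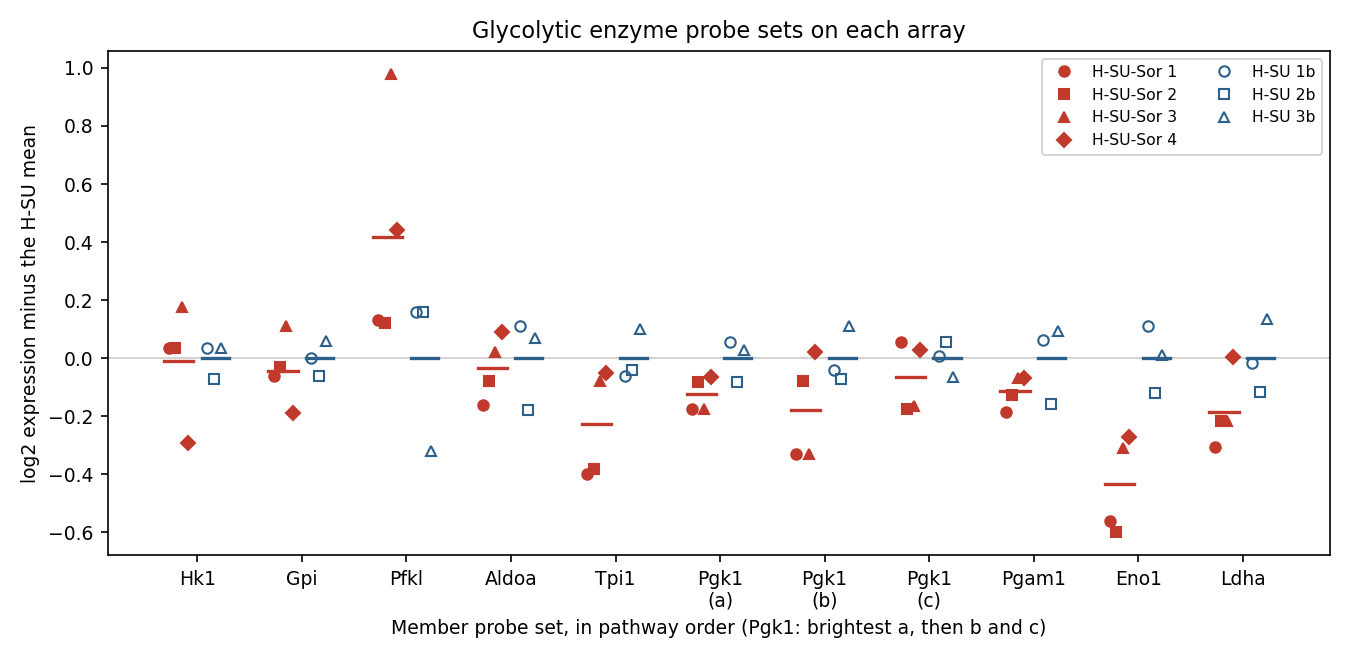
Log2 expression of each tested member probe set on each array, minus the mean of the H-SU arrays, in pathway order; filled red symbols are the 4 H-SU-Sor arrays, open blue symbols the 3 H-SU arrays, and short lines the group means. For Eno1 all 4 H-SU-Sor arrays lay below all 3 H-SU arrays, and Pfkl had the widest spread, 1.31 over the 7 arrays.

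Hexokinase phosphorylates glucose and so traps it in the cell. The Hk1 probe set above the filter read 10.56, 10.56, 10.70 and 10.23 on H-SU-Sor 1 to 4, against 10.56, 10.45 and 10.56 on H-SU 1b, 2b and 3b. The H-SU-Sor arrays lay on both sides of the H-SU arrays, and the difference was -0.01 ± 0.11 (SE, 95% interval -0.28 to 0.26). The sign of this difference was not settled, since it was 0.02 after quantile normalization and 0.01 after median centring. A second Hk1 probe set lay between 2.46 and 2.51 on all arrays, under the filter and close to the arrays' lower quartiles (2.37 to 2.42). Hk2, the isoform best known from muscle and tumours, had a single probe set. It lay below these lower quartiles, with 1.92 to 1.96 in H-SU-Sor and 1.94 to 1.97 in H-SU. No difference in Hk2 could be measured at this level.

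The 3 control probe sets named for hexokinase carry the Hk1 symbol but cannot serve as readings of it. They averaged 13.06, 12.36 and 2.48 for the 5' end, the 3' end and the middle of the transcript. Of the beta-actin controls, the 1 for the 3' end averaged 2.72, although beta-actin is abundant in lung, so the names and values of the control rows did not go together. They were left out of the test.

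Gpi, which turns glucose phosphate into fructose phosphate, read 11.54, 11.57, 11.71 and 11.41 in H-SU-Sor, against 11.60, 11.54 and 11.66 in H-SU. The groups overlapped, with a difference of -0.04 ± 0.08 (SE, 95% interval -0.23 to 0.15). As for Hk1, H-SU-Sor 3 was the highest and H-SU-Sor 4 the lowest of the 7 arrays.

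Pfkl is the liver-type subunit of phosphofructokinase, the enzyme of the committed step of glycolysis. It read 9.76, 9.75, 10.61 and 10.07 on H-SU-Sor 1 to 4, against 9.79, 9.79 and 9.31 on H-SU 1b, 2b and 3b. H-SU-Sor 3 and 4 were above every H-SU array, and H-SU-Sor 1 and 2 were just below H-SU 1b and 2b. The difference was 0.42 ± 0.24 (SE, 95% interval -0.16 to 1.01; limma, adjusted p = 0.874). It was 0.24 without H-SU-Sor 3, 0.26 without H-SU 3b and 0.13 without H-SU-Sor 3 and 4 together. On H-SU-Sor 3 the neutrophil transcripts S100a8 and S100a9 were also at their highest, 12.43 and 13.21. On H-SU-Sor 4, where Pfkl was second highest, S100a8 and S100a9 were at 9.81 and 10.58, against 9.80 to 10.40 and 10.84 to 11.63 in H-SU. On H-SU-Sor 1 and 2, S100a8 (11.15 and 10.76) and S100a9 (12.25 and 11.96) were above every H-SU array, and Pfkl was not. S100a8 and S100a9 were 2 of 7 neutrophil markers listed and the only ones above the filter, their mean deviation ran from -0.92 to 1.70 in H-SU-Sor and from -0.80 to -0.11 in H-SU, and their part in the Pfkl values was not tested.

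The other phosphofructokinase subunits gave differences close to 0. The muscle-type Pfkm differed by 0.08 ± 0.06 (SE), with a dimmer probe set at -0.05 ± 0.07, and the platelet-type Pfkp by -0.01 ± 0.13.

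Aldoa, which splits the sugar into triose phosphates, read 13.35, 13.43, 13.53 and 13.60 in H-SU-Sor, against 13.62, 13.33 and 13.58 in H-SU. Every H-SU-Sor array lay within the H-SU range, with a difference of -0.03 ± 0.10 (SE, 95% interval -0.26 to 0.20) that was 0.02 after quantile normalization.

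Tpi1, which interconverts the triose phosphates, read 11.93, 11.95, 12.25 and 12.28 in H-SU-Sor, against 12.27, 12.29 and 12.43 in H-SU. H-SU-Sor 1, 2 and 3 were below every H-SU array, 3 only just, and H-SU-Sor 4 was among the H-SU arrays. The difference was -0.23 ± 0.11 (SE, 95% interval -0.50 to 0.04; limma, adjusted p = 0.874). Without H-SU-Sor 3 and 4 it was -0.39 (limma, unadjusted p = 0.00399, adjusted p = 0.374), and without H-SU 1b and 2b it was -0.33. With single arrays left out in turn it ran from -0.29 to -0.17, the smallest without H-SU-Sor 1.

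**Figure D2:**
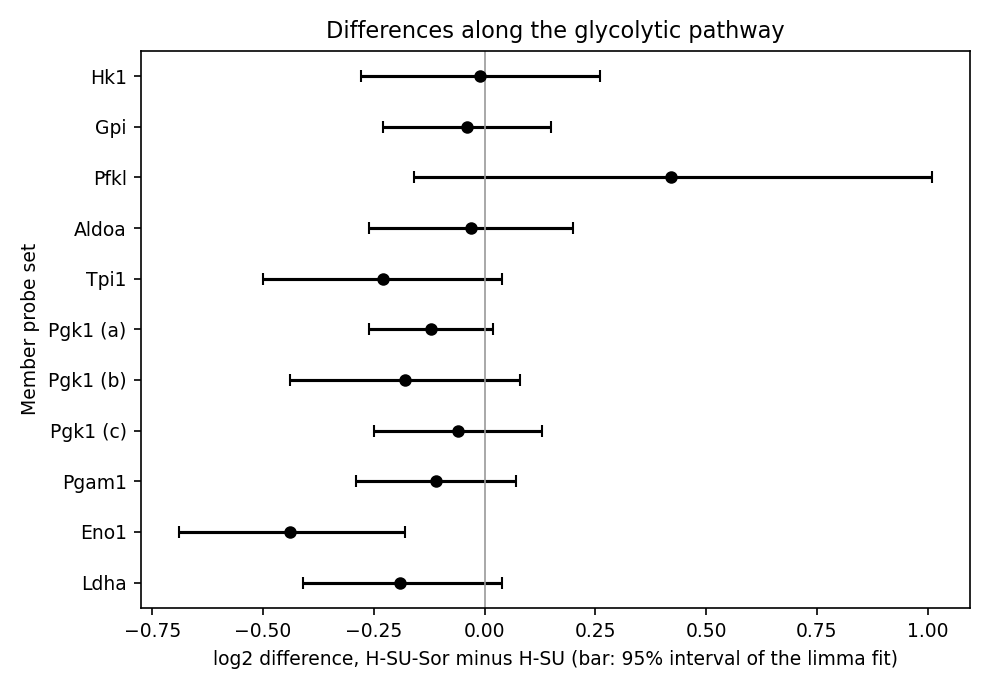
Log2 difference, H-SU-Sor minus H-SU, of each tested member probe set from the limma fit, with its 95% interval, from Hk1 at the top to Ldha at the bottom. Only the interval of Eno1 (-0.69 to -0.18) lay wholly on one side of 0, and those of Tpi1, Ldha and the brightest Pgk1 probe set reached just past it.

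Of the later steps, Pgk1, which makes the first ATP of the pathway's return, had 3 probe sets. The brightest read 13.39, 13.48, 13.39 and 13.50 in H-SU-Sor, against 13.62, 13.48 and 13.59 in H-SU, and differed by -0.12 ± 0.06 (SE, 95% interval -0.26 to 0.02). The second read 11.23, 11.48, 11.23 and 11.58 in H-SU-Sor, against 11.52, 11.49 and 11.67 in H-SU, and differed by -0.18 ± 0.11 (SE). The dimmest, between 3.89 and 4.12 on the 7 arrays and so close to the filter at 3.64, differed by -0.06 ± 0.08 (SE). All 3 had means below H-SU and groups that overlapped.

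Pgam1, which moves the phosphate within phosphoglycerate, read 13.36, 13.42, 13.48 and 13.48 in H-SU-Sor, against 13.61, 13.39 and 13.64 in H-SU. H-SU 2b lay among the H-SU-Sor arrays, and the difference of -0.11 ± 0.08 (SE, 95% interval -0.29 to 0.07) was -0.19 without H-SU 2b and -0.06 without H-SU 3b.

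Eno1, the enolase that makes phosphoenolpyruvate, read 10.60, 10.56, 10.85 and 10.89 on H-SU-Sor 1 to 4, against 11.27, 11.04 and 11.17 on H-SU 1b, 2b and 3b. The groups did not overlap, and within H-SU-Sor the arrays 1 and 2 were lower than 3 and 4. Eno1 averaged 10.72 ± 0.17 in H-SU-Sor (SD, n = 4) and 11.16 ± 0.12 in H-SU (SD, n = 3), a difference of -0.44 ± 0.11 (SE, 95% interval -0.69 to -0.18). In fold terms it was 1.35-fold lower, with an interval from 1.13 to 1.62. The unadjusted p was 0.00543 and the adjusted p 0.599 (limma), so it did not pass over all probe sets. The difference kept its sign in all 18 alternatives, between -0.58 and -0.38, with an unadjusted p below 0.05 in 17 of them and an adjusted p between 0.315 and 0.91. The exception, with a difference of -0.44 and an unadjusted p of 0.0534 (limma), set H-SU-Sor against H-SU 3b alone, with its spread taken from H-SU-Sor.

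Some transcripts of other cell types were also below H-SU on every H-SU-Sor array, though none passed the adjusted threshold. The mean deviation of 5 of 5 listed smooth muscle genes was between -0.60 and 0.03 in H-SU-Sor and between 0.28 and 0.42 in H-SU. Desmin (Des, difference -1.10), Cnn1 (-0.84) and Tagln (-0.72) had groups that did not overlap, whereas Acta2 (-0.04) and Myh11 (-0.27) overlapped. Of 5 tested macrophage genes, the complement genes C1qa (-1.70) and C1qb (-2.69) did not overlap, and Cd68 (0.39), Csf1r (0.17) and Mrc1 (0.01) did. The mean deviation of the macrophage genes was between -0.80 and 0.02 in H-SU-Sor and between -0.21 and 0.76 in H-SU. In the other direction, Vwf (0.41), 1 of 4 tested endothelial genes, was above H-SU on every H-SU-Sor array. So was Aqp5 (0.29), 1 of 5 tested lung epithelial genes, and the rest of both lists overlapped. Over all probe sets tested, groups did not overlap for 3.25% lower and 2.01% higher. The part of these cell types in the Eno1 difference was not tested. In whole lung, fewer cells of a type and less RNA per cell cannot be told apart.

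Ldha, which turns pyruvate into lactate, read 12.88, 12.97, 12.97 and 13.19 in H-SU-Sor, against 13.17, 13.07 and 13.32 in H-SU. H-SU-Sor 1, 2 and 3 were below every H-SU array and H-SU-Sor 4 was among them. The difference was -0.19 ± 0.09 (SE, 95% interval -0.41 to 0.04; limma, adjusted p = 0.874). It was -0.25 without H-SU-Sor 4 (limma, unadjusted p = 0.0215) and -0.12 without H-SU 3b.

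The promoters of Eno1, which differed most, of Ldha, and of Pfkl, which lay on the other side of 0, are shown for comparison of their hypoxia response motifs. Each run is the 250 bases before an annotated start, 5' to 3' on the gene's strand, from RefSeq (GRCr8). Capitals mark ACGTG or GCGTG, the core letters of the HIF binding motif, on either strand (CACGT or CACGC when read from the other strand). The letters CACGTG hold an overlapping match on each strand.
Eno1, upstream start, chr5:166002617-166002866, plus strand: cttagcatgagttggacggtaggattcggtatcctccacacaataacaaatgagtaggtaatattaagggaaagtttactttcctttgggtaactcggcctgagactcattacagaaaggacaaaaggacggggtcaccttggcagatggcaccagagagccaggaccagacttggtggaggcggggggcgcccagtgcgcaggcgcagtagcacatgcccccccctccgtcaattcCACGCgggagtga
Eno1, downstream start, chr5:166003111-166003360, plus strand: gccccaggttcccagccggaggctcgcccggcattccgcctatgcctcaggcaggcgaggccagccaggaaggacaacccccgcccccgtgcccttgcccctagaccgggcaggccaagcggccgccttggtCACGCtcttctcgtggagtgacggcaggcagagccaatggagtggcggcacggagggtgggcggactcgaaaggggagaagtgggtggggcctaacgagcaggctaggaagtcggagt
Ldha, chr1:106507842-106508091, plus strand: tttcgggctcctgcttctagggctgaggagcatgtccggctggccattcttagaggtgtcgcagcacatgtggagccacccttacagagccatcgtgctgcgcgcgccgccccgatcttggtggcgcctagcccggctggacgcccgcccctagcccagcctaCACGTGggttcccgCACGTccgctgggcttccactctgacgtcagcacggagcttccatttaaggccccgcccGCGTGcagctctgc
Pfkl, chr20:10663715-10663964, plus strand: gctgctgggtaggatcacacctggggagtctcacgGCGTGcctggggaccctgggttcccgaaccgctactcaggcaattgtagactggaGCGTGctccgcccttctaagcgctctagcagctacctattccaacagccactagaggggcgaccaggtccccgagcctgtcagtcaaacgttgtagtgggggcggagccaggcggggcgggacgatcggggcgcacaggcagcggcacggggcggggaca

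Each Eno1 window held 1 match. The Ldha window held 4 matches in 3 stretches, a number reached or passed by 2.44% of all 33469 windows, and the Pfkl window held 2. Ldha had the most matches of any member window. The Tpi1 window, not shown, held 0, although Tpi1 lay further below H-SU (-0.23) than Ldha (-0.19). Of the 10 members, 9 had at least 1 window in the RefSeq table, 13 windows in all. A match was found in 7 of these 13, against 36.7% of all windows, and in 6 of the 9 genes, the others being Hk2, Gpi and Tpi1. Eno1, with the lowest difference, and Pfkl, with the highest, both had matches. A match describes letters only and shows no binding.

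**Figure D3:**
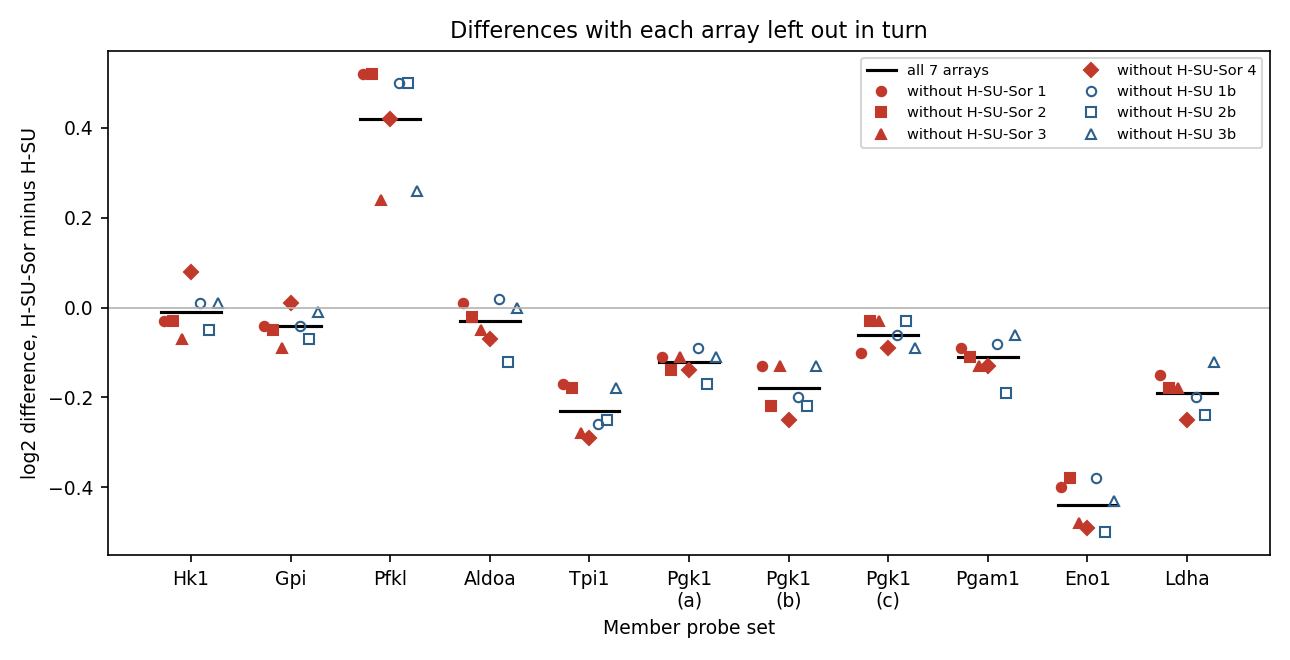
Log2 difference, H-SU-Sor minus H-SU, of each tested member probe set with all 7 arrays (black line) and with each array left out in turn (filled red symbols for a left-out H-SU-Sor array, open blue ones for a left-out H-SU array). Eno1 stayed between -0.50 and -0.38, and Pfkl ranged from 0.24 to 0.52.

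Along the pathway, the 5 tested members from Hk1 to Tpi1 had a median difference of -0.03, with 4 of 5 below 0, and the 4 from Pgk1 to Ldha had a median of -0.15, with 4 of 4 below 0. By array, the mean deviation of the 4 later members from the 7-array mean was -0.18, -0.13, -0.07 and 0.02 on H-SU-Sor 1 to 4, against 0.18, 0.00 and 0.19 on H-SU 1b, 2b and 3b. H-SU-Sor 4 and H-SU 2b met near 0 and the groups overlapped. The 5 earlier members ran from -0.10 to 0.23 in H-SU-Sor and from -0.05 to 0.04 in H-SU, the high value being H-SU-Sor 3, where Pfkl was highest. Without Pfkl, the mean deviation of the other 8 tested members was -0.14, -0.10, 0.02 and -0.02 on H-SU-Sor 1 to 4, against 0.12, -0.02 and 0.15 on H-SU 1b, 2b and 3b. Pfkl was the only tested member with a difference above 0, so leaving it out lowered the H-SU-Sor mean relative to H-SU by construction.

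**Figure D4:**
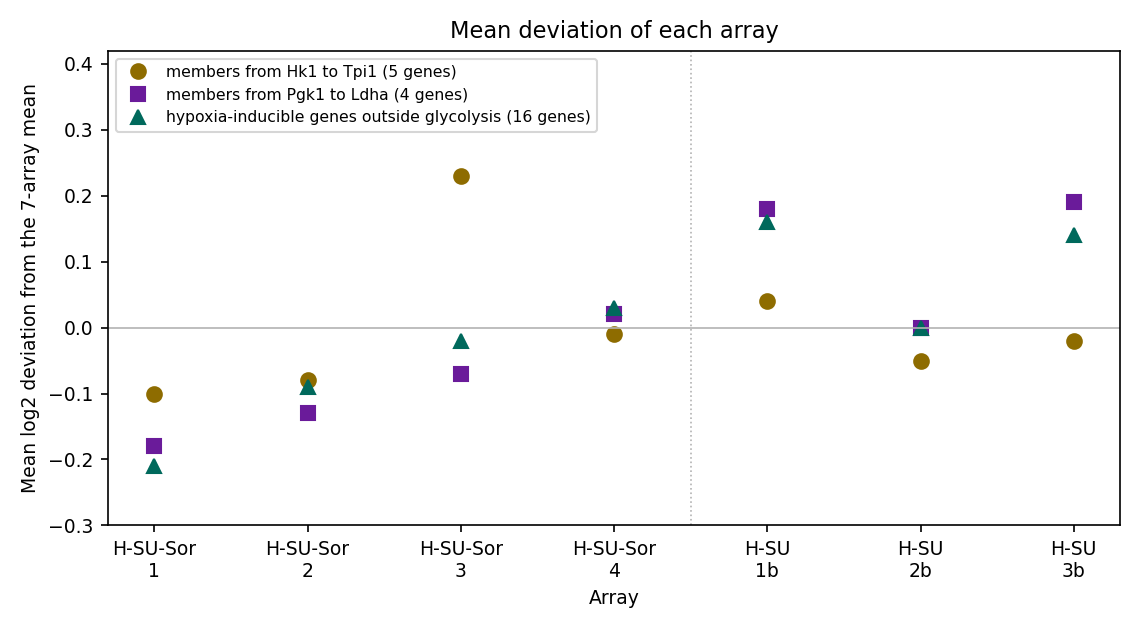
Mean log2 deviation from the 7-array mean on each array, for the members from Hk1 to Tpi1, the members from Pgk1 to Ldha, and hypoxia-inducible genes outside glycolysis; H-SU-Sor arrays are left of the dotted line. The later members were lowest on H-SU-Sor 1 (-0.18) and highest on H-SU 3b (0.19), and the hypoxia-inducible genes were lowest on the same H-SU-Sor array (-0.21).

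Hypoxia-inducible genes outside glycolysis had a median difference of -0.07 over 16 of 20 listed genes, and 0 of their 20 probe sets passed the adjusted threshold. Loxl2, an enzyme that cross-links matrix, read 3.61, 4.05, 4.06 and 3.62 in H-SU-Sor, against 4.47, 5.36 and 5.14 in H-SU (difference -1.15 ± 0.24, SE; limma, unadjusted p = 0.00246, adjusted p = 0.57). Its groups did not overlap, but 2 of its H-SU-Sor values were under the filter level of 3.64. Ddit4, a stress-induced inhibitor of mTOR signalling, differed by -0.54 ± 0.21 (SE, unadjusted p = 0.0396 in limma) with overlapping groups, and by -0.18 without H-SU 1b and 2b. Bnip3, a mitochondrial protein of hypoxic cells, differed by -0.39 ± 0.17 (SE), and heme oxygenase (Hmox1) by -0.36 ± 0.80. Without H-SU-Sor 3 and 4 these were -0.64 and -1.27, and without H-SU 1b and 2b Hmox1 was at -0.67. Differences were above 0 for 7 of the 16 genes, the highest being adrenomedullin (Adm), a vasodilator peptide, at 0.33 ± 0.30.

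The isoenzymes and other glycolytic enzymes, 8 tested of 22 listed genes, had a median difference of -0.01, and 0 of their 11 probe sets had an unadjusted p below 0.05. Ldhb, the lactate dehydrogenase subunit typical of heart, read 10.76, 10.97, 10.85 and 10.97 in H-SU-Sor, against 11.69, 11.43 and 10.73 on H-SU 1b, 2b and 3b. It was high on the 2 H-SU arrays where heart transcripts were high, such as Myl4 (6.89, 6.90, 7.27 and 5.12 in H-SU-Sor, against 9.53, 9.26 and 5.47 in H-SU). Its difference of -0.39 ± 0.22 (SE) turned to 0.16 without H-SU 1b and 2b, a value that rests on H-SU 3b as the only H-SU array. Whether heart tissue had a part in the Ldhb values was not tested. The heart list had 5 of 9 genes above the filter.

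Bpgm, which makes the bisphosphoglycerate that lowers the oxygen affinity of hemoglobin in red cells, read 10.72, 9.93, 9.33 and 9.09 on H-SU-Sor 1 to 4, against 10.13, 10.55 and 10.33 in H-SU. The order of this probe set over the 4 H-SU-Sor arrays was that of Hbb. Its difference of -0.57 ± 0.39 (SE) was -0.01 ± 0.28 without H-SU-Sor 3 and 4. A second, dimmer Bpgm probe set differed by -0.24 ± 0.23. It read 9.67, 9.36, 8.71 and 9.55 on H-SU-Sor 1 to 4, which was not the order of Hbb. The part of red cells in the Bpgm values was not tested. Of 8 red cell genes listed, 2 were above the filter (Hbb and Alas2), with a mean deviation from -3.47 to 2.44 in H-SU-Sor and from 0.66 to 1.47 in H-SU.

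Gapdh and Pkm, which complete the pathway, were measured by ordinary probe sets only together with a copy or pseudogene and were not counted. The probe set shared by Gapdh and Gapdhl10 differed by -0.13 ± 0.08 (SE) and that shared by Pkm and Pkm-ps20 by -0.06 ± 0.08, both with overlapping groups.

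Among transporters of glucose and lactate, 5 of 8 genes were tested, with a median of -0.13. The monocarboxylate transporter Slc16a7 read 8.46, 8.63, 8.19 and 8.45 in H-SU-Sor, against 7.82, 7.86 and 8.07 in H-SU. Every H-SU-Sor array was higher (difference 0.52 ± 0.12, SE; limma, unadjusted p = 0.00342, adjusted p = 0.57), and the difference was 0.37 without H-SU 1b and 2b. The hypoxia-inducible lactate exporter Slc16a3, close to the filter at 3.64, differed by -0.21 ± 0.12 (-0.50 without H-SU 1b and 2b, since H-SU 3b alone was high at 4.37). Its partner basigin (Bsg) differed by -0.15 ± 0.08 (SE).

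**Figure D5:**
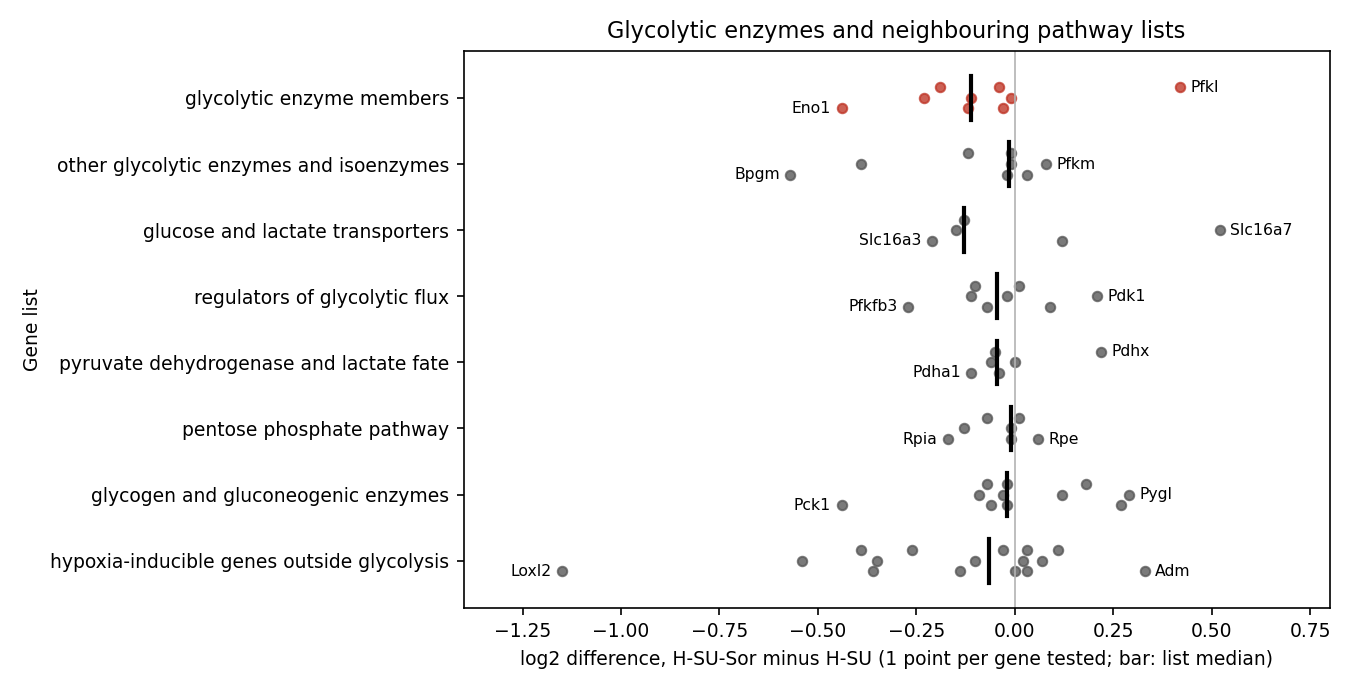
Log2 difference, H-SU-Sor minus H-SU, of every tested gene (1 point each) in the glycolytic enzyme group (red) and in 7 neighbouring lists (grey), with the list median as a black bar and the lowest and highest gene named. The members' median was -0.11, and the medians of the other lists lay between -0.13 and -0.01.

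Regulators of glycolytic flux (8 of 12 genes tested) had a median of -0.04. Pfkfb3, which makes the activator of phosphofructokinase, differed by -0.27 ± 0.35 (SE; a dimmer probe set by 0.03 ± 0.26), with H-SU-Sor 4 alone low at 10.33; it was -0.06 without H-SU-Sor 3 and 4 and -0.02 without H-SU 1b and 2b. Pdk1, a kinase that shuts off pyruvate dehydrogenase, differed by 0.21 ± 0.13 (a dimmer probe set by 0.01 ± 0.05). Pyruvate dehydrogenase and pyruvate transport genes (6 of 8) had a median of -0.05. Pdhx, a structural subunit of that complex, differed by 0.22 ± 0.09 with every H-SU-Sor array above every H-SU array (limma, unadjusted p = 0.0519). Pdha1 differed by -0.11 ± 0.08 (a dimmer probe set by -0.15 ± 0.39). The pentose phosphate pathway (7 of 8) had a median of -0.01, with Rpia at -0.17 (-0.39 without H-SU 1b and 2b) and Pgls at -0.13 (0.01 without them). Glycogen and gluconeogenic enzymes (11 of 15) had a median of -0.02, with Pck1 at -0.44 ± 0.27 (0.04 without H-SU 1b and 2b) and the glycogen phosphorylase Pygl at 0.29 ± 0.17.

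Over the 7 neighbouring lists, 0 of 74 probe sets passed the adjusted threshold (limma). At an unadjusted p below 0.05, 2 were lower and 1 higher in H-SU-Sor, beside the shares of 3.67% and 2.33% over all probe sets. Groups did not overlap for 1 lower and 2 higher probe sets, beside 3.25% and 2.01% of all probe sets.

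The genes whose pattern over the 7 arrays was most like the mean deviation of the 9 tested members, out of 9290 other genes, were Maf1, Aimp2, Bcat2, Ajuba and Oxsr1. Their Pearson r, used as a measure of likeness, lay between 0.961 and 0.996. With 7 arrays and this many genes, high values are found for some genes whatever the measure, and no test was made. Maf1 spanned 0.26 over the arrays and Oxsr1 0.54.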

How the data were processed

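Total RNA of 7 lungs was hybridised to Affymetrix rat arrays. The deposited values are on the log2 scale, 1 per probe set and array, and were normalized by the authors with RMA or GCRMA, both named per the submitters' processing notes; the sources used here do not say which. Groups were taken from the sample titles. Probe sets were named through the platform annotation, using single symbols only, and all 16 member probe sets matched RefSeq (GRCr8) by gene identifier. The 57 control probe sets were left out; of the other 31042, 20826 had 1 symbol, 436 several and 9780 none.

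H-SU-Sor minus H-SU was fitted with limma 3.58.1 (R 4.3.3; lmFit, eBayes, two-sided, no covariate) on the 15521 of 31042 probe sets above the median mean of 3.64, with Benjamini-Hochberg adjustment. The same fit was run on simulated data with independent noise and added differences larger than any of the members' differences. That run does not bear on differences as small as theirs. The number of arrays limits the precision. The p-values set each difference against the spread between these samples, moderated over all probe sets tested. Where 1 value per gene was needed, the probe set with the highest mean stood for it. Of each of 7 pathway lists, genes with an unadjusted p below 0.05 and up to 2 more with the largest difference were named; Pfkm, Pfkp, Adm and the marker genes were added after their values were seen. Members, lists and tests were chosen with earlier results of these data known. The 18 alternatives were 2 other filters, 2 normalizations, a trended prior, array weights, 2 summaries per gene, a replicate block, each array left out, and 2 pairs of arrays left out.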

Additional observations from a re-analysis of the deposited data

How the results depend on the processing

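None of the 11 member probe sets passed the adjusted threshold in any of the 18 alternatives (limma; lowest adjusted p 0.315, for Eno1). The members' median difference of -0.11 ran from -0.17 to -0.06, with 6 to 8 of 9 genes below 0. Over all probe sets, 6 passed with the 75th percentile filter, 0 to 6 without single arrays (6 without H-SU 3b) and 10 without H-SU 1b and 2b, where H-SU 3b is the only H-SU array and is assumed to vary like H-SU-Sor; the 75th percentile filter, which tests fewer probe sets, gave 562 at an unadjusted p below 0.05. Groups did not overlap for 816 probe sets, for 510 with that filter, and, with fewer arrays to separate, for 1403 in the replicate block fit, 1196 to 2050 without single arrays (lowest without H-SU-Sor 1, highest without H-SU 2b), 5741 without H-SU 1b and 2b and 2788 without H-SU-Sor 3 and 4. Members at an unadjusted p below 0.05 numbered 1 of 11, beside 6.0% of all probe sets in that fit, 2 without a filter (beside 3.51%), 4 with array weights (7.24%), 3 with the replicate block (6.64%), 3 without H-SU-Sor 3 and 4 (6.58%), and 1 to 4 without single arrays (3 without H-SU 2b, beside 5.84%, and 4 without H-SU-Sor 4, beside 6.0%). Members whose groups did not overlap numbered 1 (beside 5.26% of all), 4 in the replicate block arrays (9.04%), 7 without H-SU 1b and 2b (37.0%), 4 without H-SU-Sor 3 and 4 (18.0%), and 1 to 4 without single arrays (2 without H-SU 1b, beside 12.8%, 3 without H-SU 2b, beside 13.2%, and 4 without H-SU-Sor 4, beside 9.04%); the cause was not tested. The sign turned for Hk1 (0.02 with quantile normalization, 0.01 with median centring, 0.08 with the replicate block, 0.03 without H-SU-Sor 3 and 4, -0.07 to 0.08 without single arrays), for Gpi (0.01 with the replicate block, -0.09 to 0.01 without single arrays) and for Aldoa (0.02 with quantile normalization, -0.12 to 0.02 without single arrays). The labels give samples of the same replicate number only that number in common. Their deviations correlated at -0.059, 0.179 and 0.144, which cannot show whether they were paired. The block drops H-SU-Sor 4. Hk2 and the second Hk1 probe set were too low to pass the filter and were not tested in the main fit.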
